A study of Bos taurus with 4 samples.

Results

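Desmosomes and adherens junctions hold the cells of an epithelium together, and in the blastocyst they join the cells of the trophectoderm, the outer layer that encloses the blastocoel. In a desmosome, cadherins of the desmoglein (DSG) and desmocollin (DSC) families span the space between cells. Inside the cell, plakoglobin (JUP) and the plakophilins (PKP) bind the cadherin tails, and desmoplakin (DSP) ties them to keratin filaments. In an adherens junction, E-cadherin (CDH1) binds across the gap, and beta-catenin and alpha-catenin (CTNNA1) connect it to actin. E-cadherin is also the main adhesion molecule of morula compaction.

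The 10 genes described here are DSC2, DSC3, DSG2, DSP, PKP2, PKP3, JUP, PERP (a membrane protein of desmosomes), CDH1 and CTNNA1. All probes that the platform annotation gives one of these symbols were taken. There were 13 such probes of 43794 on the array, for 9 of the 10 genes and of 15229 gene symbols in all. No probe carried the symbol DSC3, so this gene was not analysed here.

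The blastocysts developed from vitrified morulae came from bovine embryos produced in vitro from slaughterhouse ovaries, with beef given as the breed in the labels. At the compact morula stage (day 6 of culture in the labels) they were vitrified on a Cryotop with ethylene glycol and dimethyl sulfoxide. After storage in liquid nitrogen they were warmed and cultured to expanded blastocysts. The labels give the age as 7 days after fertilization, whereas the methods place the collection of morulae on day 7, with culture to blastocysts after it. The control blastocysts developed from morulae of the same production cycles that were never cooled and were only cultured on. Although a label field reads cryopreservation for both groups, the treatment field names these blastocysts control. In the methods, the replicates are separate production cycles run on separate dates, with 1 tube per treatment and cycle. Each of the 4 arrays of 1 slide held RNA of 1 vitrified and 1 control pool (7 embryos per pool in the labels, a range in the methods), amplified before labeling. On arrays 1 and 2 the vitrified pool carried Cy5 and the control pool Cy3, and on arrays 3 and 4 the dyes were exchanged. Pools were whole embryos, so a smaller number of trophectoderm cells and less RNA per cell cannot be told apart in any of the values below.

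Signals are given as log2 of the background-subtracted and normalized intensity, and ratios as log2 of vitrified over control on the same array. A reading is 1 dye on 1 array. It counted as above background when it lay over 2 SD beyond the mean of the 153 negative control spots, which held for 60.1% to 67.3% of all probes per reading. Of the 13 probes, 11 were above background in all 8 readings and were tested with limma among 28944 probes, with a term for the dye. A gene with several probes was represented by its brightest one. The brightest probe stood for 8 of the 10 genes and for 11417 genes in all. The precision is limited by the number of arrays. The ratios of different arrays had little in common across the tested probes (r between -0.15 and 0.18). Over the 8 junction genes alone, r between arrays was 0.20 to 0.68, a description over few genes that share arrays and dyes.

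Of the 8 junction genes tested, 3 (DSC2, DSP and PERP) had lower values in vitrified than in control blastocysts with an unadjusted limma p under 0.05, and 0 had higher ones. In the background of all genes tested, 5.3% were lower and 3.5% were higher by the same rule. The study called a gene where it changed 2-fold or more at that p. No junction gene met this threshold, which 0.394% of all genes did, although DSC2 met it when the mean negative control signal was subtracted. None passed a Benjamini-Hochberg adjusted p under 0.05 from limma, and 0% of all genes did (lowest adjusted p over all probes 0.191). The 8 genes had a median log2 fold change of -0.20, against 0.0023 for all genes, and 6 of the 8 had a negative value, as did 49.6% of all genes. The count of 3 lower genes became 1 (DSC2) without array 3 or with the mean negative control signal subtracted, and 4 without array 4. It became 2 without array 1, without array 2, without the dye term, and with the mean over the probes of a gene. The share of lower genes over all genes moved as well. It was 2.4% without array 3, 2.43% with that subtraction and 2.94% without array 2. Without array 1 it was 5.57%, and without array 4 it was 9.84%. Without the dye term it was 4.9%, and with the mean over the probes of a gene 4.48%. The medians of the 8 genes were -0.31, 0.02, -0.45 and -0.20 on arrays 1 to 4. Of the 3 lower genes, all belong to the desmosome, and the desmosomal and the adherens junction genes are taken in turn here.

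DSC2 encodes desmocollin 2, the desmocollin of simple epithelia. On probe EMBV3_07540, its vitrified pools had log2 signals of 7.73, 7.67, 7.97 and 7.77 on arrays 1 to 4, and its control pools had 8.21, 8.36, 9.09 and 8.71. Every vitrified pool was below every control pool, which was the case, in one direction or the other, for 3.61% of all genes tested. The control pools also spread more widely (SD 0.39) than the vitrified pools (SD 0.13, n = 4 each). The ratios were -0.49, -0.68, -1.12 and -0.94, so that the sign was the same in both dye orientations, with means of -0.59 where the vitrified pool was in Cy5 and -1.03 where it was in Cy3. The log2 fold change was -0.81 (SE 0.15, 95% interval -1.14 to -0.48), or 0.57 of the control level, with an unadjusted p of 0.000416 and an adjusted p of 0.332 from limma. By unadjusted p, DSC2 stood at place 21 of the 11417 genes.

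**Figure D1:**
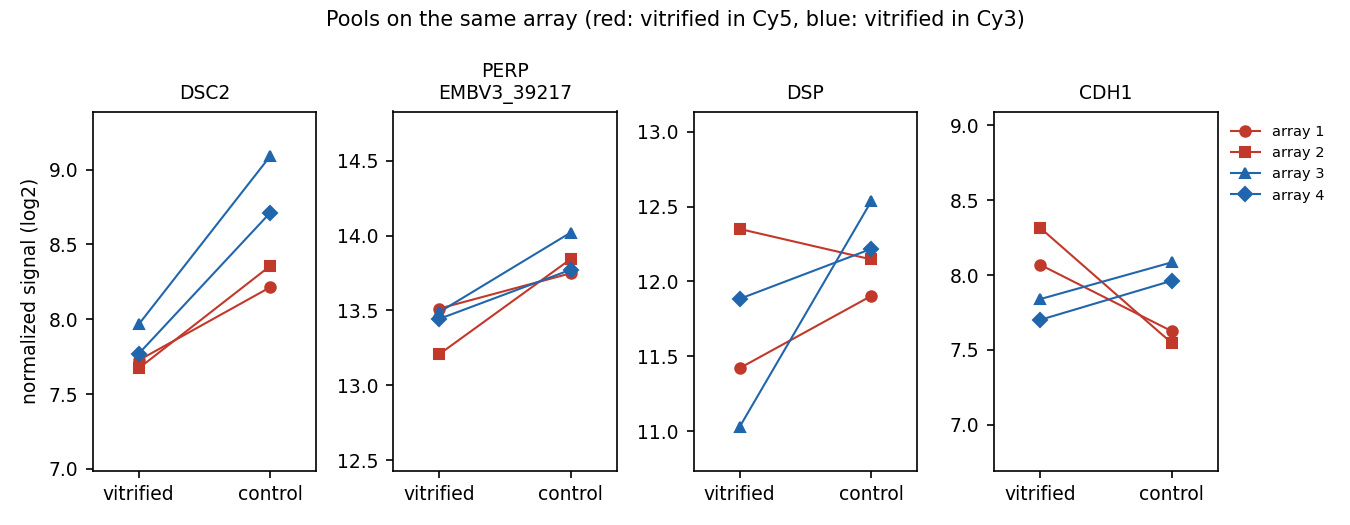
Normalized log2 signal (y axis) of the vitrified pool (left) and the control pool (right) of each array for DSC2, the brighter PERP probe, DSP and CDH1. Lines join the pools of 1 array, red where the vitrified pool was in Cy5 and blue where it was in Cy3, and every panel spans the same number of log2 units. All 4 lines of DSC2 and of PERP run up to the control pool, whereas those of CDH1 split by dye.

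The DSC2 probe was a dim one. Its raw signal was 1.23 to 1.92 times the negative control limit in the vitrified readings and 2.23 to 3.54 times that limit in the control readings. The size of the difference depended on how background was subtracted. When the mean of the negative control spots was subtracted in place of the local background, the log2 fold change was -1.25 (unadjusted p = 0.00368 from limma), and without any subtraction it was -0.74. The other DSC2 probe, EMBV3_29179, was above background in 0 of 8 readings, with log2 signals of 6.52 to 6.88 in vitrified and 6.52 to 6.88 in control pools, and it gave no value for the comparison.

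DSG2 encodes desmoglein 2, the partner cadherin found in nearly all desmosome-bearing cells. Its brightest probe, EMBV3_26821, had log2 signals of 14.34, 14.32, 14.36 and 14.29 in vitrified pools and of 14.73, 14.05, 14.07 and 14.09 in control pools. The vitrified pools were nearly equal, and the control pool of array 1 stood above all others. The ratios were -0.39, 0.28, 0.29 and 0.19, and the log2 fold change was 0.09 (SE 0.17, 95% interval -0.28 to 0.47). The other 2 DSG2 probes had log2 fold changes of -0.11 (EMBV3_17891) and -0.12 (EMBV3_14501), each with ratios on both sides of 0. None of the 3 probes was lower or higher at an unadjusted p under 0.05, and the intervals of all 3 lay within -0.53 and 0.47.

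In the ARS-UCD2.0 gene table the desmosomal cadherin genes lie side by side on 1 chromosome in the order DSG2, DSG3, DSG4, DSG1, DSC1, DSC2 and DSC3. Within this cluster only DSC2 was lower at an unadjusted p under 0.05 among the 4 genes tested. DSG1, DSG3 and DSG4 are best known from stratified epithelia. The log2 fold change was 0.16 for DSG1 (SE 0.15) and -0.11 for DSG3 (SE 0.14), both on dim probes. Raw vitrified signals on arrays 1 to 4 were 104, 156, 427 and 261 for DSG1 and 134, 170, 414 and 285 for DSG3. The negative control limits of these readings were 86.1, 131, 353 and 207. Other DSG1 probes were above background in 2 and 0 of 8 readings, and the other DSG3 probe in 0. The single DSG4 probe was above background in 0 of 8 readings, and the 3 DSC1 probes were so in at most 2 of 8. The difference of the log2 ratios of DSC2 and DSG2 was negative on all 4 arrays (-0.10, -0.96, -1.42 and -1.14). Its mean was -0.90 (SD 0.57, n = 4), with p = 0.125 by a two-sided exact sign-flip permutation test, the smallest p that 4 arrays allow.

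PERP, a membrane protein with several membrane spans that is needed for desmosomes in stratified epithelia of the mouse, had 2 probes, and they differed. The brighter one, EMBV3_39217, had log2 signals of 13.51, 13.21, 13.49 and 13.44 in vitrified pools, against 13.75, 13.84, 14.02 and 13.77 in control pools. These groups did not overlap, and the ratios of -0.24, -0.64, -0.53 and -0.33 had nearly the same mean in the 2 dye orientations (-0.44 and -0.43). Its log2 fold change was -0.43 (SE 0.15, 95% interval -0.78 to -0.08), with an unadjusted p of 0.0205 and an adjusted p of 0.606 from limma.

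The other PERP probe, EMBV3_27580, had log2 signals of 12.71, 12.65, 12.57 and 11.89 in vitrified pools and of 12.18, 12.29, 11.83 and 12.15 in control pools. It was higher in the vitrified pool on arrays 1 to 3 and lower on array 4, with ratios of 0.53, 0.36, 0.74 and -0.26 and a log2 fold change of 0.34 (SE 0.19, unadjusted p = 0.102 from limma). The ratio of the brighter probe was below that of the other one on all 4 arrays, by 0.78 on average (SD 0.51, p = 0.125 by a two-sided exact sign-flip permutation test, the smallest possible; adjusted p = 0.5 over the 4 probe pairs compared). With the mean of both probes, PERP had a log2 fold change of -0.05 and an unadjusted p of 0.765 from limma. The call for PERP thus rests on the choice of its brightest probe. It was also lost without array 2, where limma gave -0.33 (unadjusted p = 0.137), and without array 3, where limma gave -0.38 (unadjusted p = 0.0739). Which part of the transcript either probe binds is not given in the sources used here.

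DSP encodes desmoplakin, the plaque protein that anchors keratin filaments. Its log2 signals were 11.42, 12.35, 11.03 and 11.88 in vitrified pools and 11.90, 12.15, 12.53 and 12.22 in control pools. The groups overlapped, since the vitrified pool of array 2 was above 3 of the control pools, while the vitrified pool of array 3 was the lowest of all 8. The ratios of -0.48, 0.20, -1.51 and -0.33 gave a log2 fold change of -0.53 (SE 0.22, 95% interval -1.02 to -0.04), with an unadjusted p of 0.0376 and an adjusted p of 0.635 from limma. The ratios of DSP ranged over 1.71 log2 units, which put it at percentile 96.0 of all genes. Array 3 decided the call, as limma gave a log2 fold change of -0.24 without it (unadjusted p = 0.279). Without array 1, limma gave -0.36 (unadjusted p = 0.187).

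**Figure D2:**
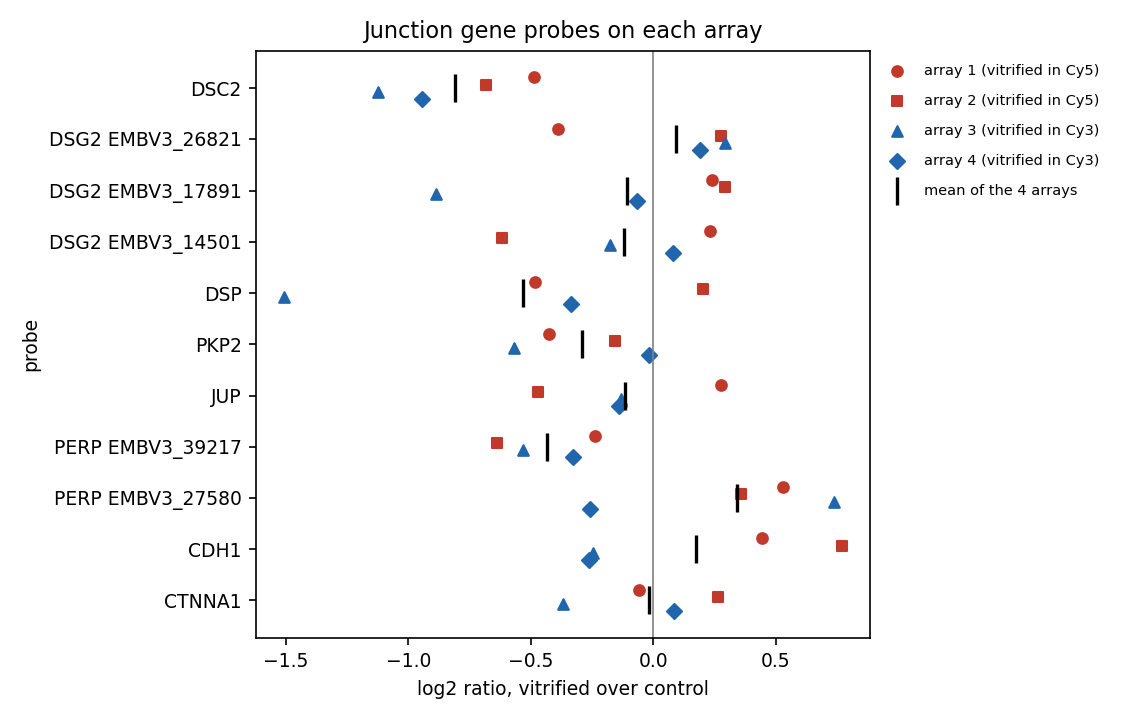
Log2 ratio of vitrified over control (x axis) for the 11 junction gene probes above background (y axis, the brightest of a gene first). Red points are arrays with the vitrified pool in Cy5, blue points those with it in Cy3, and the black bar is the mean. DSC2 and the brighter PERP probe are negative on all 4 arrays, and DSP runs from -1.51 to 0.20.

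PKP2, a plakophilin that recruits desmoplakin to the membrane, had log2 signals of 11.07, 11.80, 11.26 and 11.90 in vitrified pools and of 11.50, 11.95, 11.83 and 11.92 in control pools. The vitrified pool was the lower one on all 4 arrays, though by only 0.02 on array 4, and the groups overlapped. Of all genes tested, 8.33% were lower on all 4 arrays. The log2 fold change was -0.29 (SE 0.16, 95% interval -0.66 to 0.08), at an unadjusted p of 0.105 from limma. PKP3, another plakophilin, was above background in 1 of 4 vitrified and 0 of 4 control readings and was not tested. Its log2 signals were 6.63 to 6.98 in vitrified and 6.27 to 6.87 in control pools.

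JUP, or plakoglobin, is shared by desmosomes and adherens junctions. It had log2 signals of 8.98, 8.50, 8.77 and 8.25 in vitrified pools and of 8.70, 8.97, 8.91 and 8.39 in control pools. The pools overlapped throughout. The ratios were 0.28, -0.47, -0.13 and -0.14, and the log2 fold change was -0.12 (SE 0.17, 95% interval -0.50 to 0.27).

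In the adherens junction, CDH1 followed the dye. Its log2 signals were 8.07, 8.32, 7.84 and 7.70 in vitrified pools and 7.63, 7.55, 8.08 and 7.96 in control pools. E-cadherin was thus higher in the vitrified pool on both arrays with that pool in Cy5 (ratios 0.44 and 0.77) and lower on both arrays with it in Cy3 (-0.25 and -0.26), which means that the reading in Cy5 was the higher one on every array. The dye term was 0.43 (unadjusted p = 0.0185 from limma). It was under 0.05 for CDH1 alone among the 8 junction genes and for 7.21% of all genes. The log2 fold change of vitrified over control was 0.18 (SE 0.15, 95% interval -0.16 to 0.52), at an unadjusted p of 0.267. The CDH1 probe was dim as well, at 1.25 to 2.36 times the negative control limit in vitrified and at 1.36 to 1.91 times that limit in control readings.

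CTNNA1, the alpha-catenin of epithelia, was measured on a bright probe, with log2 signals of 15.53, 15.54, 15.10 and 15.55 in vitrified pools and of 15.59, 15.28, 15.47 and 15.46 in control pools. The ratios of -0.06, 0.26, -0.37 and 0.09 lay on both sides of 0. The log2 fold change was -0.02 (SE 0.16, 95% interval -0.38 to 0.34). The vitrified pool of array 3 was the lowest reading, as it was for DSP.

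**Figure D3:**
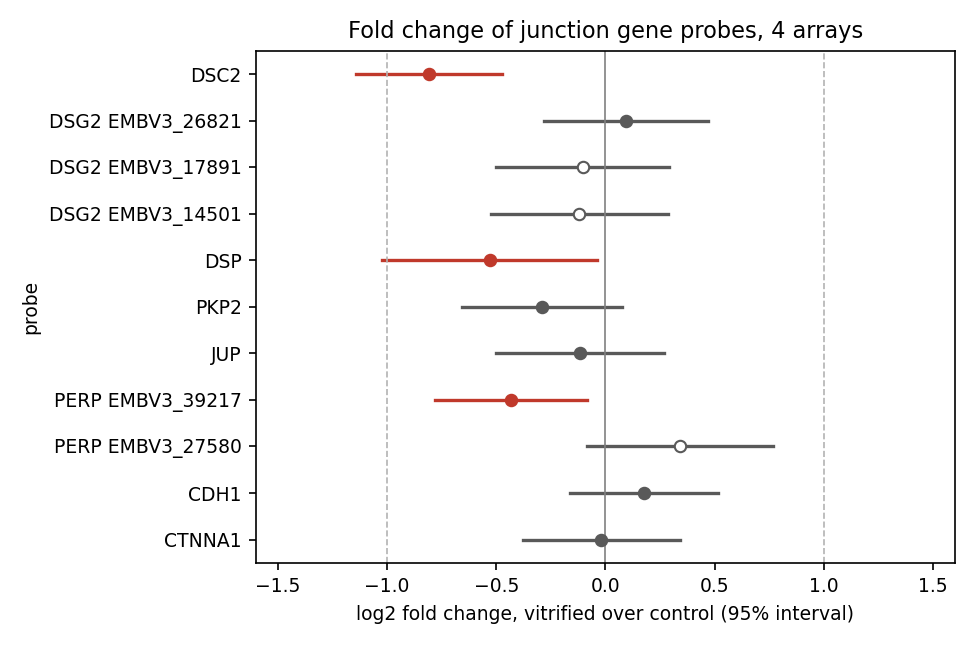
Log2 fold change of vitrified over control (x axis) with the 95% interval from limma for the 11 probes tested, with filled points for the brightest probe of a gene and open points for its other probes. Red marks an unadjusted p under 0.05, and the dashed lines mark a fold change of 2. No point lies beyond a dashed line, and the interval of DSC2 (-1.14 to -0.48) is the farthest from 0.

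The 8 junction genes did not stand out by their variation between arrays. The ratio of a gene ranged over a median of 0.66 log2 units across the 4 arrays, against 0.74 for all genes, and the median SE was 0.16 in both. The lowest ratio of a gene was on array 3 for 4 of the 8, on array 2 for 2 and on arrays 1 and 4 for 1 each.

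Other genes of the same junctions gave few calls. Of 8 further desmosome genes, 4 were tested and 1 was lower at an unadjusted p under 0.05 (median 0.03). This was PPL, periplakin, a plakin that like desmoplakin binds keratin filaments. It had ratios of -0.06, -0.19, -1.05 and -0.39, and its log2 fold change was -0.42 (SE 0.16, unadjusted p = 0.0308, adjusted p = 0.631 from limma). The pools of PPL did not overlap. PKP4, a plakophilin relative of adherens junctions and desmosomes, had 0.25 (SE 0.17), and PKP1 and EVPL were on the array but not tested. Of 19 further adherens junction genes on the array, 17 were tested, and by its brightest probe none was lower or higher at an unadjusted p under 0.05 (median -0.06). The smallest p were those of LIMA1, an actin cross-linker bound to alpha-catenin, with -0.40 (SE 0.18, unadjusted p = 0.0614; its other probes -0.23 and -0.24), and of CDH2, N-cadherin, with 0.25 (SE 0.16, unadjusted p = 0.144). Beta-catenin, CTNNB1, had 0.02 (SE 0.18), and p120-catenin, CTNND1, had 0.0046 (SE 0.16). ACTN4, an actin linker, had -0.25 (SE 0.21) by its brightest probe. Its dimmer probe had -0.41 (SE 0.17, unadjusted p = 0.0393, adjusted p = 0.638 from limma).

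Of 12 regulators of these genes, 10 were tested and 1 was higher. ZEB1, a transcriptional repressor of CDH1, had ratios of 0.54, 0.16, 0.37 and 0.42 and a log2 fold change of 0.37 (SE 0.15, unadjusted p = 0.0366, adjusted p = 0.635 from limma). Only 5 of the 8 readings of its probe were above background. Of the others, the repressor SNAI1 had 0.16 (SE 0.19), the epithelial activator GRHL2 had -0.11 (SE 0.15), and TP63, which activates PERP in the mouse, had 0.26 (SE 0.18).

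The nearest neighbor of these structures is the tight junction, which seals the trophectoderm. Among 16 tight junction genes tested, the median was -0.15. By the brightest probe of a gene, 4 had lower and 0 had higher values in vitrified blastocysts at that p. The 4 were the claudins CLDN23 (-1.22, SE 0.19), CLDN3 (-0.58, SE 0.18), CLDN6 (-0.46, SE 0.15) and CLDN1 (-0.42, SE 0.15), each lower on all 4 arrays. CLDN23 was picked by the study from these very arrays, so its direction here is not independent evidence. The study also measured CLDN23 by quantitative PCR and reported that its differential expression held. That used other tubes of blastocysts, partly from the same production cycles. The tight junction scaffold TJP1 had -0.11 (SE 0.17) and occludin, OCLN, -0.10 (SE 0.17). F11R had 0.10 (SE 0.16) by its brightest probe. Its dimmer probe was lower on all 4 arrays, with -0.53 (SE 0.19, unadjusted p = 0.0219, adjusted p = 0.610 from limma). Whether the 2 sets of junction genes differed was not tested.

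**Figure D4:**
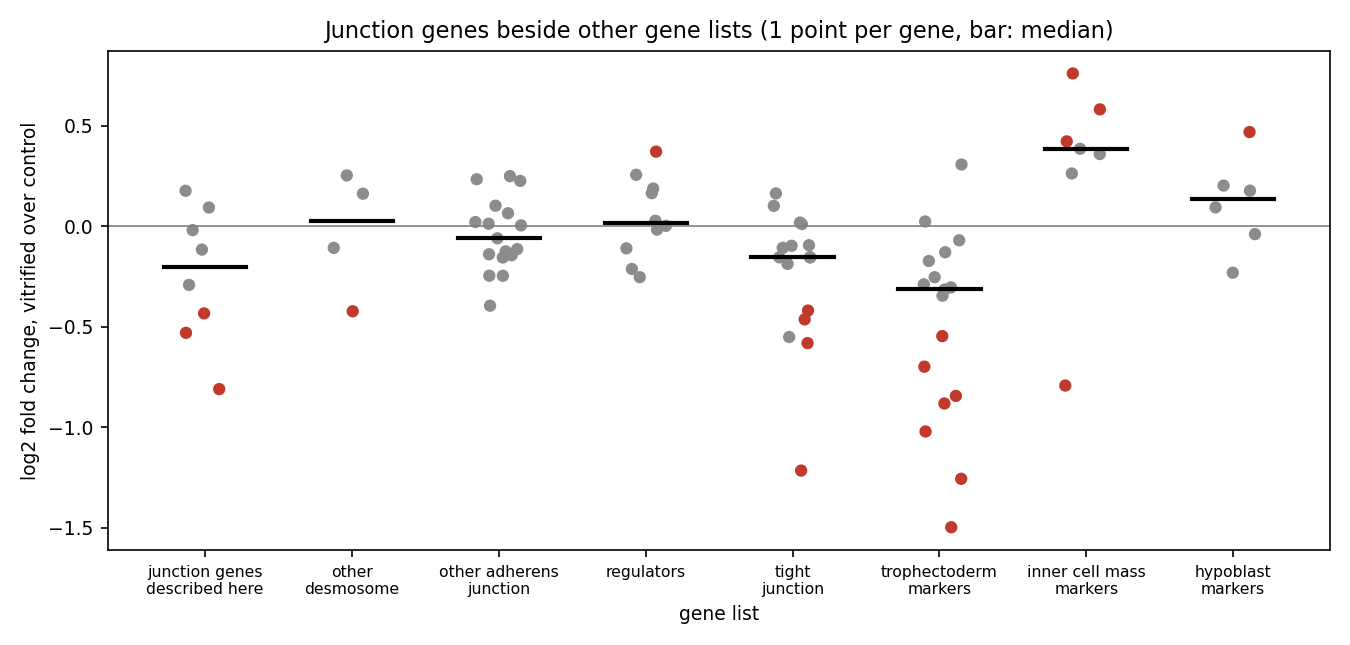
Log2 fold change of vitrified over control (y axis) for the genes tested in 8 lists (x axis), 1 point per gene, red at an unadjusted p under 0.05, with the median as a black bar. The median is -0.20 for the junction genes described here, -0.31 for the trophectoderm markers and 0.39 for the inner cell mass markers.

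Markers of the embryo's cell types were read in the same comparison, and all 17 trophectoderm markers were tested. Of the keratins that desmoplakin ties to the membrane, KRT18 had a log2 fold change of -0.30 (SE 0.16, unadjusted p = 0.0932 from limma). The KRT8 probe reached the scanner's ceiling in 1 reading, the control pool of array 3, and its ratios of 0.74, -0.05, -1.01 and -1.06 differed between the dye orientations, so no fold is given. Of the 17, 7 had lower values in vitrified blastocysts and 0 had higher ones by the same p, with a median of -0.31. KRT19 and PTGS2 of this list are named by the study from these arrays, so their values here are not independent evidence either. The study also measured KRT19, but not PTGS2, by quantitative PCR, with the same outcome as for CLDN23. Of the other 15 markers, read on the same arrays, 5 were lower (median -0.30). They were PAG12 (-1.02), TFAP2A (-0.88), PAG2 (-0.84), IFNT (-0.70) and DAB2, and PAG12 met the study's 2-fold threshold. The transcription factors CDX2 (-0.17), GATA2 (-0.31), GATA3 (0.02), TEAD4 (-0.13), ELF5 (-0.25) and TFAP2C (0.31) were neither lower nor higher by that p. DAB2 had -0.55 by its brightest probe and 0.32, -0.02 and -0.57 by its other probes. PAG11 had -0.07 by its brightest probe and was not among the lower markers. Its dimmer probe, above background in 6 of 8 readings, had -0.97 (unadjusted p = 0.00881, adjusted p = 0.549 from limma). The summed signal of all 17 was 152896 to 177438 in vitrified pools and 178580 to 267185 in control pools. Without KRT19 and PTGS2 it was 137772 to 164947 in vitrified pools and 146581 to 199227 in control pools, so that the groups overlapped. The vitrified pool was then the higher one on array 1. Both sums include KRT8, and sums without it were not computed. On array 1, KRT8 had log2 signals of 15.92 in the vitrified and 15.19 in the control pool. Of 7 inner cell mass markers tested, 3 were higher (SPIC, KLF4 and PRDM14) and 1 was lower (NANOG), with a median of 0.39 and summed signals of 35198 to 45345 in vitrified and 28902 to 32880 in control pools. The dimmer probe of SPIC had 0.25 (unadjusted p = 0.156 from limma), and that of PRDM14 had 0.27 (unadjusted p = 0.181). Of 6 hypoblast markers, 1 was higher and none was lower (median 0.14). This was PDGFRA, whose ratios of 1.25, 1.30, -0.54 and -0.14 split by dye and whose other 2 tested probes had -0.09 and 0.06. Of 6 cumulus cell markers, FSHR was lower and none was higher (median -0.0036). The cumulus markers AMH, FOXL2, GREM1 and HAS2 were not above background in enough readings to be tested. The part of these markers in the values of DSC2, DSP and PERP was not tested.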

How the data were processed

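RNA of vitrified and control blastocyst pools was compared on 4 arrays with 2 dyes. The authors deposited the scanner's intensity files, of which the median signal and median local background of each dye were used. They also deposited normalized log2 ratios (Cy5 over Cy3, not turned for the dye), which had a correlation of 0.9989 or more with loess ratios computed here without the quantile step and served as an alternative.

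In R 4.3.3 with limma 3.58.1 and the data.table package (1.17.8), local background was taken off each signal (floor 0.5), ratios were normalized by loess within and by quantiles between arrays and turned to vitrified over control, and 28944 of 43794 probes above background in at least 4 of 8 readings were fitted with a group and a dye term (2 residual and 6.80 prior degrees of freedom). Control spots had no weight in the loess. P values are two-sided, with Benjamini-Hochberg adjustment over all probes tested. Of 43794 probes, 21790 had 1 symbol, and any probe with several would have been left out. In the RefSeq gene list of ARS-UCD2.0, which was used for names and gene order alone, 14114 of 15229 symbols were found by name and 1019 by synonym. No probe, promoter or protein sequences were used.

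The genes, the lists and the tests were chosen with earlier results of these data known. Named were all 10 junction genes by every probe, and of each other junction, regulator and tight junction list the genes at an unadjusted p under 0.05, or the 2 with the smallest p where there was none. Any further gene was chosen for its role once its value was known. The fit was tested on simulated data. The alternatives changed the background (normexp, offset 50), the filter on dim probes (none, or stricter), the normalization (median centring, or loess without quantiles), the model (without the dye term, or robust with an intensity trend), the values (the authors' ratios, or the mean of all probes of a gene) and the arrays (each left out). Subtracting nothing or the mean negative control signal was added after seeing the data.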

Additional observations from a re-analysis of the deposited data

Results flagged for a closer look

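Of 33 sets of 4 values checked for the 11 junction gene probes tested (ratios, vitrified signals and control signals), 4 held 1 value that stood apart from the other 3, and chance gives about 1 in 20. For the brightest DSG2 probe, the control pool of array 1 had a log2 signal of 14.73, against 14.05 to 14.09 on the other arrays, and the ratio of that array was accordingly -0.39, against 0.19 to 0.29. For CTNNA1, the vitrified pool of array 3 had 15.10, against 15.53 to 15.55. For the dimmer PERP probe, the vitrified pool of array 4 had 11.89, against 12.57 to 12.71. No value of DSC2 or DSP stood apart in this way.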

How the results depend on the processing

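DSC2 was lower at an unadjusted p under 0.05 in all 15 alternatives, with log2 fold changes from -1.25 to -0.74 and adjusted p values from limma between 0.0751 and 0.934. The number of lower junction genes was 3 and ran from 1 to 4 when 1 array was left out. It was 1 (DSC2) without array 3, where 2.4% of all genes were lower. Without array 4 it was 4, with PKP2 (-0.43), where 9.84% of all genes were lower. It was also 1 when the mean negative control signal was subtracted, where 277 genes in all were lower against 605. The number was 2 without the dye term (DSC2 and PERP), where 4.9% of all genes were lower. With the mean over the probes of a gene it was 2 (DSC2 and DSP), where 4.48% of all genes were lower. No junction gene was higher in any alternative. The median kept its sign, between -0.28 and -0.08. DSP lost its call without the dye term (unadjusted p = 0.0538), without array 1 or 3 and with the negative control signal subtracted, and PERP lost it without array 2 (-0.33, unadjusted p = 0.137) or 3 (-0.38, unadjusted p = 0.0739), with the mean of its probes and with the negative control signal subtracted. CTNNA1 turned to values of 0.00062 with no quantile normalization and of 0.00089 with the authors' ratios, and ran from -0.13 to 0.094 when 1 array was left out, with 0.061 without array 1 and 0.094 without array 3. DSG2 turned to -0.044 with the mean of its probes and to -0.074 without array 2 (range -0.074 to 0.26), and JUP turned to 0.071 without array 2 (range -0.30 to 0.071). The causes of these changes were not tested. With 3 arrays, 1 dye orientation rests on a single array, which then counts as much as the pair of the other orientation. The signals of DSC2 and CDH1, near the negative control limit, set no firm size for their differences. The fit on ratios within arrays is itself paired by array, and no other block was added.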
